A study of Mus musculus with 29 samples.

Results

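The MHC class I presentation genes described here were 10 of the 25746 genes in the count tables, chosen by their symbols: H2-K1, H2-D1, H2-T23, B2m, Tap1, Tap2, Tapbp, Psmb8, Psmb9 and Nlrc5. Each was found in the tables and each passed the filter on low counts that left 17031 genes for testing. They were followed by RNA sequencing of 29 samples of cortical tissue in 8 groups. The samples labelled as controls, called non-stroked here, were 4 from wildtype (WT) C57BL/6, 3 from Rag2-/- and 4 from NSG mice. The study's methods take control tissue from the side opposite the stroke, its results speak of mice without stroke, and its animal numbers differ from the sample numbers. Each sample is called a mouse below, but control and stroked samples may share animals and then would not be independent. Tissue from around a photothrombotic stroke, a light-induced clot in the right sensorimotor cortex, was taken at 21 days post injury (dpi) from 4 WT, 3 Rag2-/- and 3 NSG mice without treatment. Another 3 stroked WT mice had received the calcineurin inhibitor tacrolimus by subcutaneous pump from 0 dpi (WT-Tacr acute), and 5 from 7 dpi (WT-Tacr delayed). The mice were 3 months old and of both sexes. Loss of Rag2 stops the development of T and B lymphocytes. NSG mice (NOD scid gamma) have neither these cells nor functional NK cells and, unlike the other groups, have a NOD background.

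By their labels, 20 of the samples belong to a cohort named Imm2 and 9 to one named TF. All non-stroked, Rag2-/- and NSG samples were in Imm2 and all WT-Tacr delayed samples in TF. Stroked WT mice were split 2 and 2, and WT-Tacr acute mice 1 and 2. Total counts per library ran from 32507506 to 43403413 in Imm2 and from 17789044 to 29928311 in TF. As a check of the genotypes, B230118H07Rik, whose span contains Rag2, had at most 4 counts in any Rag2-/- library and at least 274 in all others. Rag2 itself had 0 counts in all but 1 library, which held 2. WT-Tacr groups were set against untreated non-stroked WT mice, so stroke and drug move together in those comparisons.

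MHC class I molecules show short peptides from inside the cell to CD8 T cells and are read by NK cells as well. The immunoproteasome, with inducible subunits such as Psmb8 and Psmb9, cuts proteins into peptides; the transporter Tap1-Tap2 pumps them into the endoplasmic reticulum, and tapasin (Tapbp) helps to load them onto a heavy chain paired with beta-2-microglobulin (B2m). H2-K1 and H2-D1 encode the classical heavy chains, H2-T23 the non-classical chain Qa-1, and Nlrc5 the transactivator of class I genes. Class I expression is low in healthy brain and is known to be raised by interferons.

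In GENCODE M21 on GRCm38, 8 of the 10 genes lie in the MHC on chromosome 17: Tapbp (33915899 to 33929292), H2-K1 (33996017 to 34000347), Psmb9 (34181987 to 34187764), Tap1 (34187553 to 34197225), Psmb8 (34197721 to 34201454), Tap2 (34203527 to 34216321), H2-D1 (35262730 to 35267499) and H2-T23 (36029773 to 36032855). B2m is on chromosome 2 (122147686 to 122153083) and Nlrc5 on chromosome 8 (94434356 to 94527272). H2-K1, Psmb9 and H2-T23 are on the minus strand and the others on the plus strand. The promoter windows below are 300 bases long and cover the start site (RefSeq, GRCm38.p6), most of each lying upstream. They were found for 8 genes, all but Tap2 and Nlrc5. They are shown because the heavy chains and B2m carry the sequence elements for which class I promoters are known. Capitals mark the interferon response core GAAANNGAAA and the kappa B site GGGATTCCC, each searched on both strands.
H2-K1, chr17:34000298-34000597, minus strand: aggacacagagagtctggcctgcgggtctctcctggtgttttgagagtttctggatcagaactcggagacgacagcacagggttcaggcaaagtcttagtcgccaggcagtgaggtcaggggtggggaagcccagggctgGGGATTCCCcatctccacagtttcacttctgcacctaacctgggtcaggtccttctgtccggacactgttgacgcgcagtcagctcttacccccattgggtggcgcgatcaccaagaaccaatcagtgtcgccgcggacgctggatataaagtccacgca
H2-D1, chr17:35262844-35263143, plus strand: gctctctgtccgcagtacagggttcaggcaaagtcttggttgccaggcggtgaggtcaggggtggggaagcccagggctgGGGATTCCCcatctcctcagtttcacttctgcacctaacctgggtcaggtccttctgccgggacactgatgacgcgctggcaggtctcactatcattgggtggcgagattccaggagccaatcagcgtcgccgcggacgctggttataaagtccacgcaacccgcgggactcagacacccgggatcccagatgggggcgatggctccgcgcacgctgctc
B2m, chr2:122147437-122147736, plus strand: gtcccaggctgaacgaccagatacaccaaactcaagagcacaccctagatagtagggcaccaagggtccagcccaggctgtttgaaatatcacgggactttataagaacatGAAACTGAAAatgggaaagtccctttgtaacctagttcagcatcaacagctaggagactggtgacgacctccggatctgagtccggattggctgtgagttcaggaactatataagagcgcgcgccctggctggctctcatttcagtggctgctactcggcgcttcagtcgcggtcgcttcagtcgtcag
H2-T23, chr17:36032652-36032951, minus strand: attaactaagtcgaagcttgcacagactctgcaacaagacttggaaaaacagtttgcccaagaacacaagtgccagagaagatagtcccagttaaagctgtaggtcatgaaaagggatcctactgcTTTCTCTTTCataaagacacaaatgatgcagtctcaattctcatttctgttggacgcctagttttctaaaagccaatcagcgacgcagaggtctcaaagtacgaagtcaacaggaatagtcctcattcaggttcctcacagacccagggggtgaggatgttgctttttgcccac
Tap1, chr17:34187306-34187605, plus strand: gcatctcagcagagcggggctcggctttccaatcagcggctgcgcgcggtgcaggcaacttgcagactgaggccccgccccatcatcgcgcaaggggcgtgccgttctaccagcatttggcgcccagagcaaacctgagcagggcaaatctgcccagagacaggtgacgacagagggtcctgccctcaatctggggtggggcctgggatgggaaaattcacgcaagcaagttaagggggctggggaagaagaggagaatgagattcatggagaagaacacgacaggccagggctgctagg

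The kappa B letters were in the windows of H2-K1 (110 bases before the start site) and H2-D1 (170 bases before), against 0.353% of 32851 promoter windows. The same windows also held TGACGC, the core of an X2-type element, found in 7.4% of all windows. The interferon response core was in B2m (139 bases before the start site) and, read on the other strand as shown, in H2-T23 (124 bases before), against 3.44% of windows. CCAAT was in 7 of the 8 genes and in 37.4% of windows, and none of the 4 motifs was in the window of Psmb8 (34197945 to 34198244). The windows of Psmb8, Tapbp, H2-D1 and Psmb9 lie wholly inside the GENCODE spans given above. Sequence upstream of those spans was therefore not searched for these genes. Tap1 and Psmb9 face away from each other with start sites 226 bases apart, so that their windows share 275 bases and the Tap1 sequence above stands for most of both. These matches describe the letters only. Variant forms of each element were not searched. A window without marked letters, such as those of H2-K1 and H2-D1 for the interferon response core, may therefore still hold such a form.

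Levels are given as CPM, the count scaled to library size, and compared between genes per kb of exon. In non-stroked WT cortex, B2m had the highest level per length of transcript, 110 CPM per kb of exon ± 6.69 (SD, n = 4), followed by H2-D1 with 11.5 ± 1.15, Tapbp with 6.40 ± 0.43, H2-K1 with 6.0 ± 0.33 and H2-T23 with 3.92 ± 0.41 CPM per kb. Tap2 followed with 1.89 ± 0.20 CPM per kb. Psmb8, Tap1, Psmb9 and Nlrc5 were lowest: Psmb8 had 0.42 ± 0.05, Tap1 0.38 ± 0.04, Psmb9 0.20 ± 0.04 and Nlrc5 0.10 ± 0.02 CPM per kb. Tapbp and H2-K1 did not differ beyond their spread, nor did Psmb8 and Tap1. Psmb9 rested on 23 to 34 counts per library and Nlrc5 on 25 to 42, so counting error weighs most on these genes. H2-K1, H2-D1 and H2-T23 belong to families of near copies: 9.63%, 12.8% and 13.6% of all 50-base windows of their transcripts also occur in transcripts of other genes, and their counts are uncertain to that extent. This share was at most 2.87% for the other 7 genes.

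Stroke raised all 10 genes in WT mice at 21 dpi. The largest rises were in Psmb8, Psmb9, the classical heavy chains and Nlrc5, and the smallest was in the non-classical chain H2-T23 (1.63-fold): Psmb8 rose 5.12-fold, H2-K1 4.05-fold, Nlrc5 3.98-fold, Psmb9 3.95-fold and H2-D1 3.60-fold. Higher calls made up 15.2% of all genes tested in this comparison (edgeR, adjusted p below 0.05). The median log2 fold change of the 10 genes was 1.73, against -0.000445 over all genes tested. Since tissue pieces were sequenced, a change in the number of expressing cells and a change in RNA per cell cannot be told apart in any of these comparisons.

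H2-K1 was at 16.3, 17.7, 18.4 and 18.2 CPM in the 4 non-stroked and at 81.9, 60.1, 70.8 and 72.7 CPM in the 4 stroked WT mice, a log2 fold change of 2.02 (SE 0.27, edgeR adjusted p = 2.61e-05). H2-D1 went from between 27.0 and 33.5 CPM to 125.9, 69.9, 106.0 and 123.0 CPM (log2 fold change 1.85, SE 0.30, adjusted p = 0.000132). Both heavy chains were separated between the groups, and the lowest stroked mouse, replicate 2, was the same for both. Psmb8, which replaces Psmb5 in the immunoproteasome, went from 1.54, 1.17, 1.43 and 1.57 CPM to 7.85, 4.56, 7.17 and 9.68 CPM (log2 fold change 2.36, SE 0.34, adjusted p = 4.52e-05). Psmb9 rose by a log2 fold change of 1.98 (SE 0.38, adjusted p = 0.000504) and Nlrc5 by 1.99 (SE 0.42, adjusted p = 0.00123).

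The transport and loading genes rose less. Tap1 had 1.81 to 2.28 CPM without and 7.04, 4.61, 6.04 and 7.67 CPM with stroke (log2 fold change 1.62, SE 0.31, adjusted p = 0.000482). Its partner Tap2 had a log2 fold change of 0.76 (SE 0.20, adjusted p = 0.00643) and Tapbp 0.84 (SE 0.15, adjusted p = 0.000361). B2m, the light chain, rose from between 86.9 and 100.6 CPM to 257.0, 239.5, 165.2 and 174.4 CPM (log2 fold change 1.14, SE 0.22, adjusted p = 0.000591), with both Imm2 mice above both TF mice. H2-T23 was the exception in separation: its stroked values of 17.95, 12.2, 20.1 and 23.8 CPM overlapped the non-stroked range of 10.03 to 12.6 CPM (log2 fold change 0.71, SE 0.20, adjusted p = 0.0106). Its stroked TF mice were both above its stroked Imm2 mice. For the other 9 genes all stroked mice were above all non-stroked mice, which held for 16.3% of all genes tested. In the Imm2 mice alone, and with cohort as a covariate, 8 of the 10 genes passed.

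**Figure D1:**
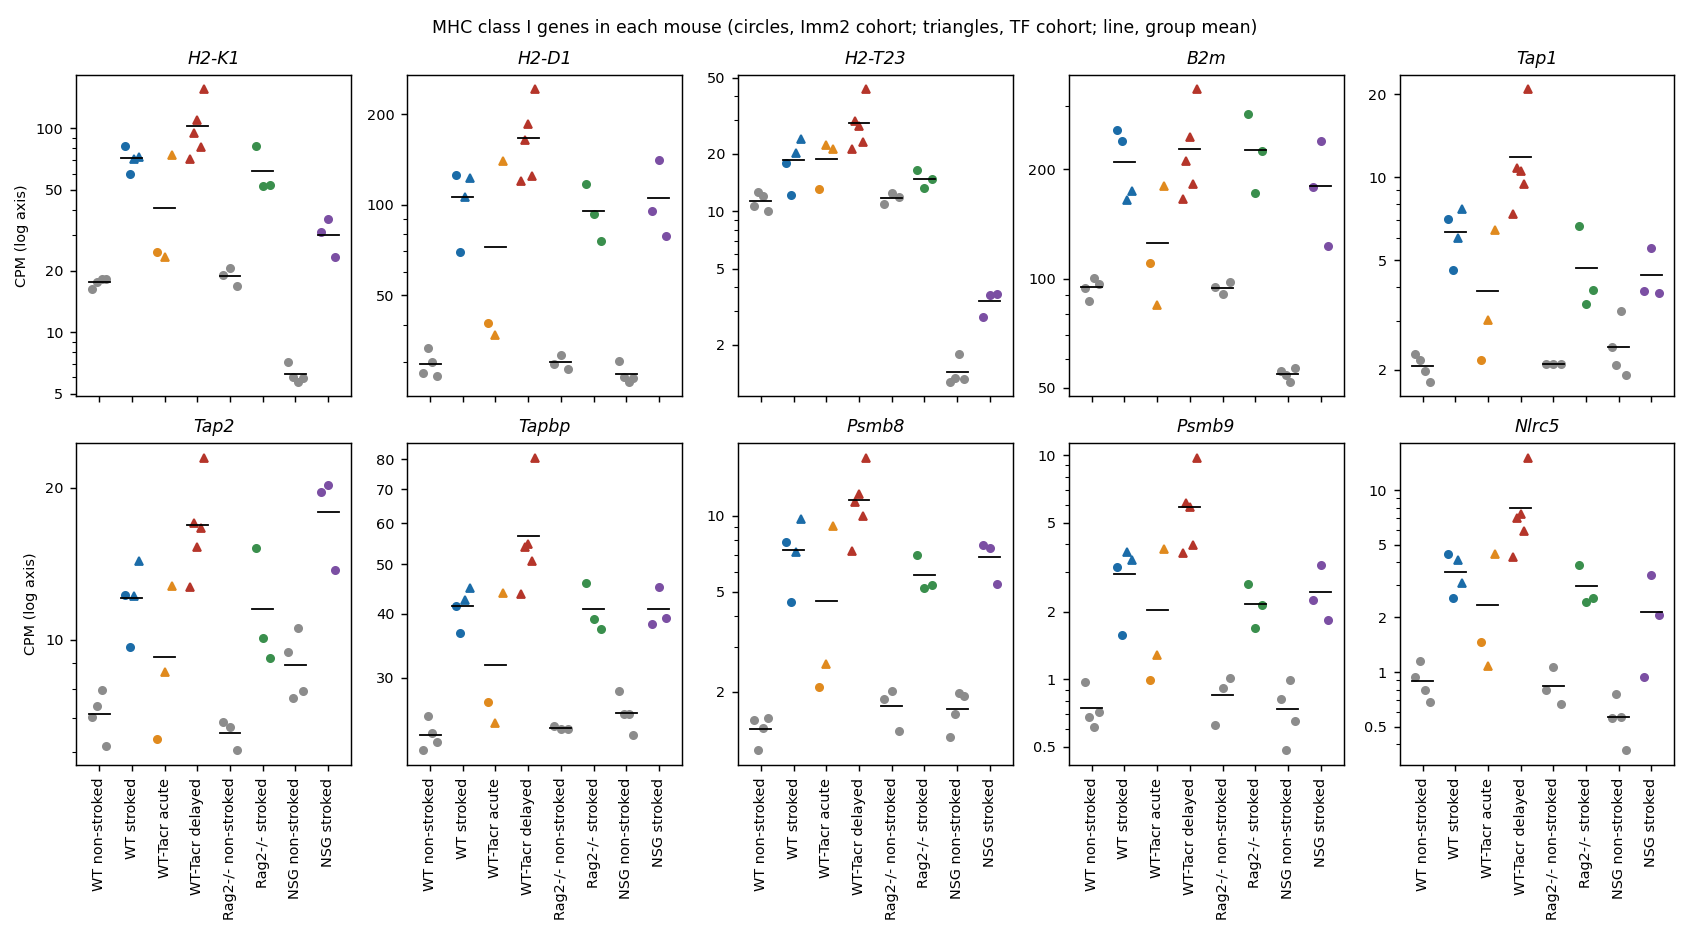
Level of each of the 10 class I genes in each mouse, in CPM on a log axis that differs between panels, by group; circles are Imm2 and triangles TF mice, and the line is the group mean. Stroked WT mice lie above non-stroked WT mice for all genes but H2-T23, where replicate 2 (12.2 CPM) falls in the non-stroked range, and NSG mice sit lowest for H2-T23.

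Without mature T and B cells, the genes still rose. In Rag2-/- mice 8 of the 10 passed the test after stroke, against 6.71% of all genes called higher, with a median log2 fold change of 1.31. H2-K1 was at 19.2, 20.6 and 16.8 CPM without and 81.8, 52.1 and 52.6 CPM with stroke (log2 fold change 1.72, SE 0.31, adjusted p = 0.00131). B2m reached 283.4, 172.0 and 224.8 CPM from between 90.8 and 97.6 CPM (log2 fold change 1.26, SE 0.26, adjusted p = 0.00283), and Nlrc5 had a log2 fold change of 1.81 (SE 0.49, adjusted p = 0.0206). Psmb9 missed the threshold (log2 fold change 1.35, SE 0.43, adjusted p = 0.0525), as did H2-T23 (0.34, SE 0.23, adjusted p = 0.427). All 10 genes were separated between the 3 stroked and 3 non-stroked mice, as were 18.8% of all genes tested. Stroked replicate 1 had the highest value of all 10 genes, and without it 4 genes passed. Leaving out non-stroked replicate 1 or 4 left 5. That stroked mouse also had the largest sum of choroid plexus markers, 1584 CPM against 11.97 and 9.32 in the other two; the part of this in its class I values was not tested.

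Non-stroked Rag2-/- mice were close to non-stroked WT mice, with log2 differences between -0.12 and 0.30. In edgeR's test 0 of the 10 genes passed, 0 had an unadjusted p under 0.05, and DESeq2 called 0 as well; 0.00587% of all genes differed in either direction.

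NSG mice differed at rest in a small subset of the genes. NOD mice carry an MHC haplotype with the heavy chain Kd, whereas C57BL/6 mice have Kb; both have Db. Of the 10 genes 3 were lower in non-stroked NSG than in non-stroked WT mice, H2-T23, H2-K1 and B2m, and 0 were higher (4.92% of all genes tested were lower). H2-T23 was at 1.29, 1.35, 1.79 and 1.33 CPM in NSG and at 10.65, 12.6, 12.04 and 10.03 CPM in WT mice (log2 fold change -2.98, SE 0.23, adjusted p = 4.53e-10). H2-K1 was at 7.11, 6.02, 5.73 and 5.97 CPM against 16.3 to 18.4 CPM (log2 fold change -1.51, SE 0.28, adjusted p = 0.000549). B2m, which lies outside the MHC, was at 55.5, 54.3, 52.1 and 56.7 CPM against 86.9 to 100.6 CPM (log2 fold change -0.79, SE 0.22, adjusted p = 0.0205); its adjusted p was 0.059 without NSG replicate 3, 0.0525 without WT replicate 4 and 0.05003 without WT replicate 5.

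H2-D1, by contrast, was at 25.9 to 30.2 CPM in NSG and 27.0 to 33.5 CPM in WT mice (log2 fold change -0.11, SE 0.30, adjusted p = 0.882). Tap1, Tap2, Tapbp, Psmb8 and Psmb9 had log2 differences between -0.02 and 0.32 and Nlrc5 had -0.65 (SE 0.46, adjusted p = 0.44). Among the neighbouring heavy chain genes, H2-T22 was at 0.51 to 1.05 CPM in NSG against 11.3 to 13.1 CPM in WT mice (log2 fold change -3.91, SE 0.22, adjusted p = 1.13e-12). H2-Q10 went the other way, with 19 to 51 counts in each non-stroked NSG library and 0 or 1 in each non-stroked WT library. Of 17 further heavy chain and class I-like genes tested, 4 were higher and 1 lower in non-stroked NSG mice. Their median log2 fold change was 0.36, against 0.00553 over all genes. The share of all genes called higher in this comparison is not reported here. H2-Q10 is also the gene that shares most 50-base windows with H2-K1, 5.18% of them. For a polymorphic gene, a lower transcript level and a smaller share of its reads assigned to the annotated allele cannot be told apart from gene counts.

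**Figure D2:**
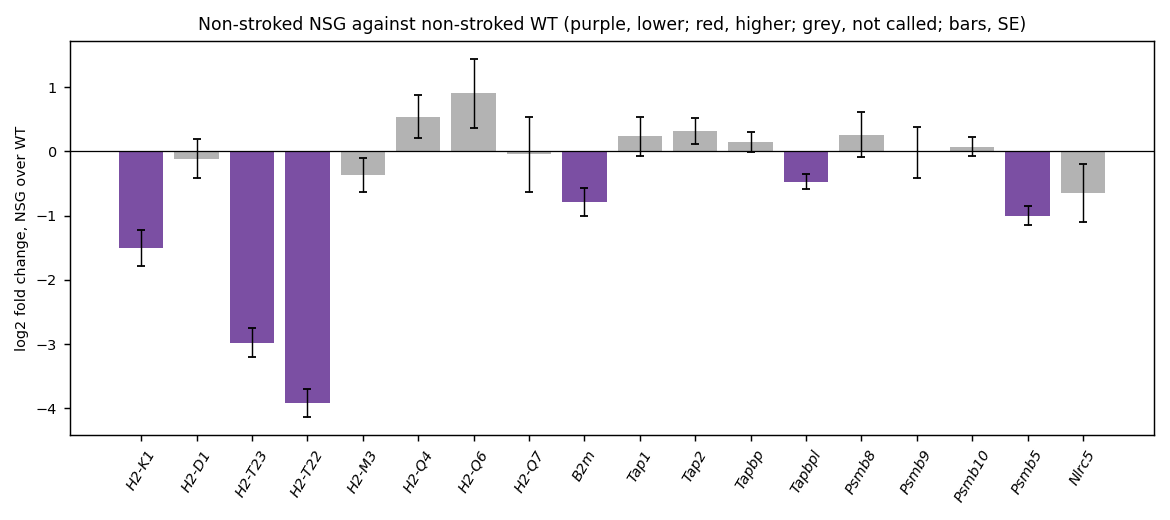
Difference between non-stroked NSG and non-stroked WT mice (4 against 4) as log2 fold change with SE, for the 10 class I genes and others of the pathway. Purple bars passed the test as lower, with H2-T22 (-3.91) and H2-T23 (-2.98) farthest down, while H2-D1 (-0.11) is near 0.

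The genes rose in NSG mice as well. After stroke 9 of the 10 passed, against 13% of all genes called higher, and the median log2 fold change was 1.73. H2-K1 went from the low NSG values above to 31.1, 35.8 and 23.4 CPM (log2 fold change 2.28, SE 0.30, adjusted p = 2.23e-05), and all 3 mice stayed below the stroked WT range of 60.1 to 81.9 CPM. H2-D1 reached 95.5, 140.8 and 78.6 CPM (log2 fold change 1.94, SE 0.32, adjusted p = 0.000232), overlapping the stroked WT range of 69.9 to 125.9 CPM. H2-T23 reached 2.81, 3.66 and 3.70 CPM (log2 fold change 1.23, SE 0.25, adjusted p = 0.00123), below every WT library with or without stroke. B2m had 178.9, 239.1 and 122.7 CPM (log2 fold change 1.72, SE 0.24, adjusted p = 4.55e-05). Tap1 was the gene that missed the threshold, with 3.87, 5.56 and 3.79 CPM from between 1.92 and 3.26 CPM (log2 fold change 0.86, SE 0.32, adjusted p = 0.0545). All 10 genes were separated between stroked and non-stroked NSG mice, as were 13.6% of all genes tested.

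Whether the response itself differed between strains was tested as a difference of differences. For Rag2-/- minus WT the 10 log2 differences ran from -0.63 to 0.12, and for NSG minus WT from -0.75 to 0.58. In edgeR's test 0 genes passed in either case, with 0 at an unadjusted p under 0.05 and 0 by DESeq2; the smallest adjusted p was 0.95 for Rag2-/- and 0.441 for NSG. Of all genes tested, 0% and 0.0294% passed. The SE of these differences was 0.23 to 0.64 for Rag2-/- and 0.22 to 0.64 for NSG, so the responses are not shown to be alike.

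**Figure D3:**
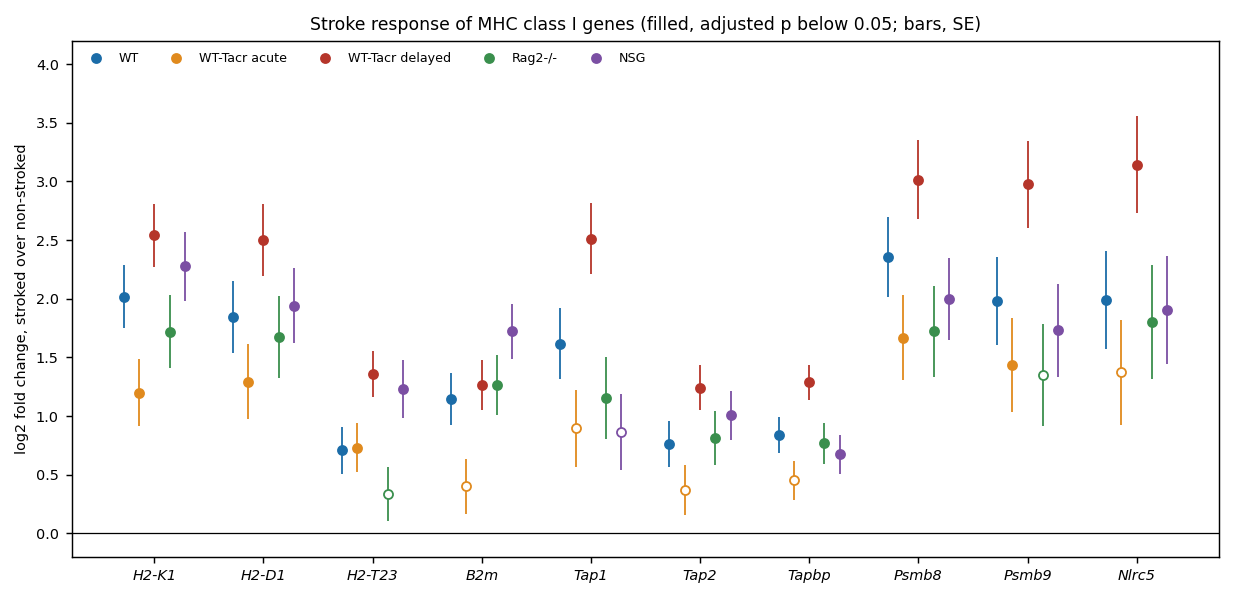
Log2 fold change from non-stroked to stroked tissue with SE, for each class I gene and each of the 5 stroked groups; filled points passed the edgeR test and open points did not. WT-Tacr delayed mice have the highest point for all genes but B2m, where NSG (1.72) is higher; WT, WT-Tacr acute and WT-Tacr delayed share the same 4 non-stroked WT mice.

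Mice on tacrolimus from 0 dpi split into low and high values. In the comparison with non-stroked WT mice 5 of the 10 genes passed, H2-K1, H2-D1, Psmb8, Psmb9 and H2-T23 (6.18% of all genes were called higher), and these 5 were also the genes with no overlap (10.4% of all genes). For acute replicates 1 and 2 the number in the sample title differed from that in the name of the deposited table, and the recorded link between table and sample was used. The 3 mice were far apart. H2-K1 was at 24.7, 23.4 and 73.7 CPM in replicates 1, 2 and 3, H2-D1 at 40.3, 36.9 and 140.4 CPM, Psmb8 at 2.09, 2.58 and 9.08 CPM and Nlrc5 at 1.46, 1.08 and 4.44 CPM. Replicate 3 was the highest for 9 of the 10 genes, all but H2-T23, and lay within or above the stroked WT range. Replicates 1 and 2 were below every stroked WT mouse for 9 genes, again all but H2-T23.

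Averaged over the 10 genes, acute replicates 1 and 2 were 1.24-fold and 1.35-fold above non-stroked WT mice and replicate 3 was 3.18-fold above, whereas the 4 stroked WT mice were between 2.13-fold and 3.14-fold above. Without replicate 3, 0 of the 10 genes passed against non-stroked WT mice. Without replicate 1, 8 passed. Leaving out single non-stroked WT mice gave 2 or 3. The count was also 0 with cohort as a covariate, in Imm2 alone (which holds 1 acute mouse) and in a fit of the 2 groups alone. Markers of microglia and macrophages followed the same split, with summed levels of 255.5, 266.2 and 510 CPM in acute replicates 1, 2 and 3, against 196.6 to 231.2 in non-stroked and 418.8 to 539.4 in stroked WT mice; 7 of the 10 markers passed as higher. Neuron markers summed to 9091, 8714 and 6603 CPM in the same order. The part of tissue composition in the split was not tested.

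**Figure D4:**
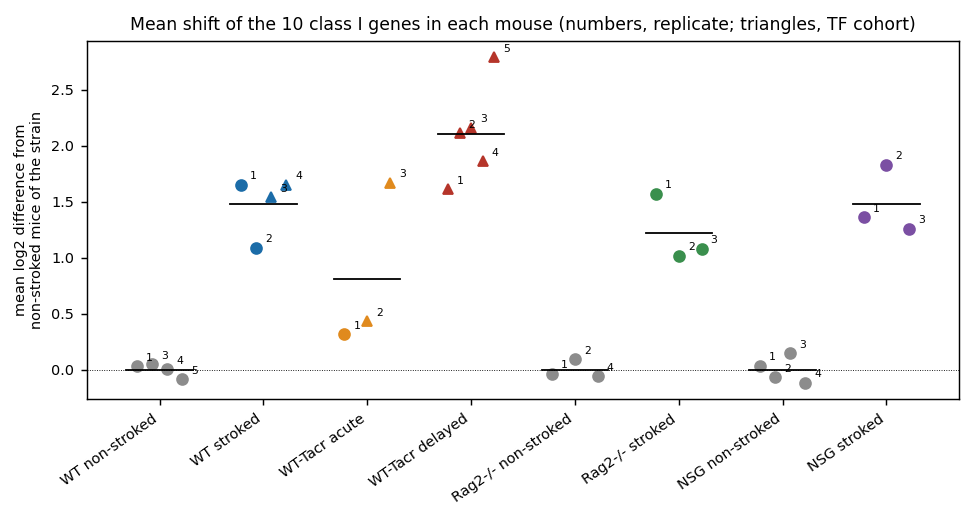
Mean over the 10 class I genes of the log2 difference between a mouse and the average non-stroked mouse of its strain; numbers are replicates, circles Imm2 and triangles TF, and lines are group means. WT-Tacr acute replicates 1 and 2 lie at 0.32 and 0.44 and replicate 3 at 1.67, and WT-Tacr delayed replicate 5 is the highest mouse at 2.79.

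Mice treated from 7 dpi had the highest group mean for 9 of the 10 genes, the exception being Tap2, where stroked NSG mice were higher. All 10 genes passed against non-stroked WT mice (27.6% of all genes were called higher) without overlap (26.5% of all genes), with a median log2 fold change of 2.51. Nlrc5 was at 4.30, 7.02, 7.37, 5.93 and 15.0 CPM against 0.69 to 1.14 CPM (log2 fold change 3.14, SE 0.41, adjusted p = 2.14e-06). Psmb8 was at 7.28, 11.3, 12.3, 9.96 and 17.0 CPM (log2 fold change 3.01, SE 0.34, adjusted p = 4.77e-07) and Psmb9 at 3.66, 6.14, 5.88, 3.98 and 9.72 CPM (2.98, SE 0.37, adjusted p = 1.22e-06). Tap1 was at 7.36, 10.8, 10.6, 9.46 and 20.9 CPM (2.51, SE 0.30, adjusted p = 8.81e-07). H2-K1 rose to between 71.0 and 155.9 CPM, with a log2 fold change of 2.54 (SE 0.27, adjusted p = 3.91e-07). Replicate 5 was the highest for all 10 genes; leaving it out, like leaving out any other mouse, kept the count at 10. All of these mice were in TF and all non-stroked mice in Imm2, so cohort and group cannot be told apart except through the stroked WT and WT-Tacr acute groups, which hold mice of both cohorts. With cohort as a covariate 8 genes passed.

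Stroked WT-Tacr mice were then set directly against stroked WT mice. For acute treatment the 10 log2 differences ran from -0.82 to 0.02 with a median of -0.59, which was -0.30, -0.33 and -1.33 without acute replicate 1, 2 and 3, and in edgeR's test 0 genes passed, 4 had an unadjusted p under 0.05, and DESeq2 called 0. The smallest adjusted p was 0.311, and 0% of all genes passed. Without acute replicate 3, 8 of the 10 genes were called lower. The share of all genes called lower in that refit is not reported here, so this count cannot be read as particular to class I genes. For delayed treatment the differences ran from 0.12 to 1.15 with a median of 0.65 (0.35 with cohort as a covariate); 0 passed, 9 had an unadjusted p under 0.05, DESeq2 called 0, and 0% of all genes passed. The largest was Nlrc5 (1.15, SE 0.37, adjusted p = 0.154), whose lowest delayed value, 4.30 CPM, was below the highest stroked WT value, 4.47 CPM. Without stroked WT replicate 4, 1 gene passed.

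Between the treatment times all 10 genes passed as higher in delayed than in acute mice, against 10.4% of all genes. Tap1 had a log2 fold change of 1.62 (SE 0.32, adjusted p = 0.0102) with a lowest delayed value of 7.36 and a highest acute value of 6.41 CPM. It was the only 1 of the 10 genes without overlap. H2-K1, for example, had a lowest delayed value of 70.98 and a highest acute value of 73.67 CPM. The share of all genes without overlap in this comparison is not reported here. H2-K1 had 1.34 (SE 0.28, adjusted p = 0.0102), Nlrc5 1.77 (SE 0.43, adjusted p = 0.0111) and H2-T23 0.63 (SE 0.21, adjusted p = 0.0339). The calls rested on the pooled fit and on the low acute mice: 0 genes passed within TF, in a fit of the 2 groups alone, and without acute replicate 1 or 2. The median log2 difference of the 10 genes was 1.27 and became 2.08 without acute replicate 3. Microglia and macrophage markers summed to 537.3 to 714.3 CPM in delayed mice, and choroid plexus markers to 606.9, 12.5, 855.1, 838.6 and 812.7 CPM in delayed replicates 1 to 5 against 4.54 to 18.9 CPM in acute mice. In the same order the mean of the class I genes was 3.04-fold, 4.32-fold, 4.46-fold, 3.62-fold and 6.91-fold above non-stroked WT mice. Neuron markers were lower in delayed than in acute mice (5 of 7 passed), with a median log2 fold change of -0.49 against -0.02 over all genes. The share of all genes called lower in this comparison is not reported here. The part of these cell contents in the difference was not tested.

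The swap of proteasome subunits was followed as the ratio of each inducible subunit to the constitutive one it replaces, which does not depend on library size. In WT mice the Psmb8/Psmb5 ratio was 5.79%, 4.56%, 4.67% and 5.75% without stroke and 26.3%, 16.0%, 19.7% and 23.3% with stroke, a log2 difference of 2.02 (exact permutation test, two-sided p = 0.0286, adjusted p = 0.107 over 15 tests). Psmb9/Psmb6 went from between 0.905% and 1.51% to between 2.05% and 5.27% (log2 difference 1.79, exact p = 0.0286, adjusted p = 0.107). In delayed mice the log2 differences were 2.50 and 2.82 (exact p = 0.0159 and adjusted p = 0.107 for both), in Rag2-/- mice 1.82 and 1.23 (exact p = 0.1) and in NSG mice 1.64 and 1.31 (exact p = 0.0571). Each of these 8 p values is the smallest its group sizes allow, and the groups did not overlap. In acute mice the differences were 0.78 and 1.10 (exact p = 0.229 and 0.114), with Psmb8/Psmb5 at 5.93%, 5.47% and 21.2% in replicates 1, 2 and 3.

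Psmb10, the remaining inducible subunit, did not follow this pattern. Psmb10/Psmb7 was between 34.2% and 37.6% in non-stroked and between 30.6% and 42.6% in stroked WT mice (log2 difference 0.0035, exact p = 0.971), the stroked mice lying at 40.5% and 42.6% in Imm2 and 32.5% and 30.6% in TF, and across the 5 comparisons the log2 difference ran from -0.03 to 0.21. Psmb10 itself was at 20.3 CPM ± 0.83 (SD, n = 4) in non-stroked and 22.7 CPM ± 1.87 (SD, n = 4) in stroked WT mice and passed in none of the 5 stroke comparisons. In non-stroked NSG mice Psmb5 was at 14.3 CPM ± 1.90 (SD, n = 4) against 28.7 CPM ± 2.25 (SD, n = 4) in WT mice, a log2 fold change of -1.001 (SE 0.15, adjusted p = 2.90e-05 in edgeR), beside a Psmb8/Psmb5 ratio of 11.2% to 15.2% already without stroke. Stroked NSG replicate 1 stood apart in its proteasome genes, with a summed level of 904.1 CPM over 12 of them against 570.2 and 623.7 CPM in the other stroked NSG mice, and with the lowest Psmb8/Psmb5 and Psmb9/Psmb6 ratios of the group, 29.2% and 1.62%.

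**Figure D5:**
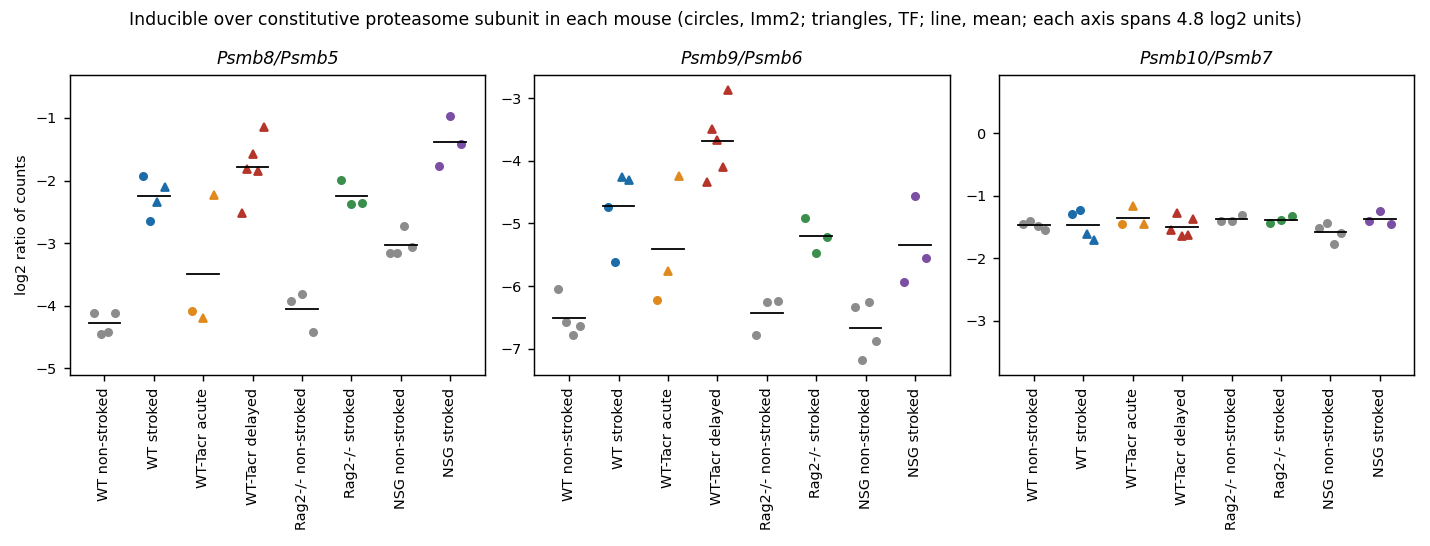
Log2 ratio of inducible to constitutive proteasome subunit in each mouse, for Psmb8/Psmb5, Psmb9/Psmb6 and Psmb10/Psmb7, by group; circles are Imm2 and triangles TF mice, lines are means, and the 3 axes span the same range. The first 2 ratios are higher in stroked groups, the acute tacrolimus mice being split, while the third stays between -1.77 and -1.16 in every mouse.

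Counts were at hand for 62 further pathway genes, of which 59 were tested, and 21 were higher and 3 lower after stroke in WT mice, 9 higher and 1 lower in acute, 32 higher and 9 lower in delayed, 9 higher in Rag2-/- mice and, in NSG mice, 27 higher and 3 lower. In the same order 15.2%, 6.18%, 27.6%, 6.71% and 13% of all genes were called higher. The share called lower after stroke is not reported here, so counts of lower genes in these lists are not set against it. Non-classical heavy chains and class I-like genes made up many of the higher ones: of 17 tested, 10 were higher in WT, 5 in acute, 15 in delayed, 6 in Rag2-/- and 12 in NSG mice, and 0 were lower. H2-Q7, which encodes a Qa-2 chain, rose by 2.82 on the log2 scale in WT (SE 0.52, adjusted p = 0.000371), 2.31 in Rag2-/- (SE 0.60, adjusted p = 0.0175) and 2.65 in NSG mice (SE 0.54, adjusted p = 0.00146), and H2-Q6 with 3.04, 2.02 and 2.36; these genes share reads with near copies. H2-M3, which presents formylated peptides, was 1.26 higher in stroked WT mice on the log2 scale (SE 0.25, adjusted p = 0.00075).

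Of 9 loading and trimming genes, 1 was higher in acute and 0 in Rag2-/- mice, 3 were higher and 1 lower in delayed and 4 higher and 2 lower in NSG mice. In WT mice 2 rose, the trimming peptidase Erap1 (log2 fold change 0.53, SE 0.15, adjusted p = 0.0112) and the translocon subunit Sec61b (0.83). Of all genes, 6.18% were called higher in acute, 6.71% in Rag2-/-, 27.6% in delayed, 13% in NSG and 15.2% in WT mice. The higher counts of this list in delayed and WT mice are thus near the share of all genes. Canx had log2 fold changes between -0.003 and 0.05 over the 5 comparisons and passed in none. The chaperone Calr passed as lower in delayed mice (-0.32). In NSG mice it rose from a mean of 408.7 to 628.8 CPM (log2 fold change 0.62, SE 0.11, adjusted p = 0.000369), and Pdia3, a thiol oxidoreductase of the loading complex, from 161.3 to 236.4 CPM (0.55, SE 0.12, adjusted p = 0.00225). With just the NSG groups in the model neither passed (adjusted p = 0.0531 and 0.0808). Of 12 further proteasome genes, the activator subunits Psme1 (0.54) and Psme2 (0.88) rose and Psme3 (-0.39) fell in WT mice, so that 2 were higher, a share near the 15.2% of all genes. In acute mice 2 were higher (6.18% of all genes), in delayed mice 5 (27.6%) and in NSG mice 5 (13%). In Rag2-/- mice 0 were higher (6.71%). In acute and in delayed mice 1 was lower. Psmb7 passed in none of the 5 stroke comparisons and Psmb6 in NSG mice alone (0.40). That call rested on stroked NSG replicate 1, at 142.4 CPM against 77.85 and 88.95 CPM in the others, and without it the log2 fold change was 0.08 (adjusted p = 0.615). It was also lost without non-stroked NSG replicate 1 (adjusted p = 0.0656) and with just these groups in the model (adjusted p = 0.242).

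Of 21 transcription and interferon signalling genes tested, 7 rose and 2 fell in WT mice, where 15.2% of all genes were called higher; among those that rose were Irf8 (log2 fold change 1.64), Ifngr1 (1.19) and Irf1 (0.82, SE 0.23, adjusted p = 0.00976). In delayed mice 9 rose and 7 fell (27.6% of all genes were higher) and in acute mice 1 rose (6.18%). In Rag2-/- mice 3 rose (6.71% of all genes were higher) and in NSG mice 6 rose and 1 fell (13%). Irf1 passed in neither of these strains (0.58 and 0.52). The counts of genes that fell are given without the share of all genes called lower, which is not reported here. Ifng was at 0 to 2 counts in every library and was not tested. A list of 15 interferon-stimulated genes had 14 higher in WT, 5 in acute, 15 in delayed, 5 in Rag2-/- and 6 in NSG mice. Its summed level was 26.6 to 28.3 CPM in non-stroked and 71.3 to 110.6 CPM in stroked WT mice, and was 36.1, 32.8 and 109.1 CPM in acute replicates 1, 2 and 3.

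Markers of other cells were examined beside these results. Microglia and macrophage markers rose with stroke in all groups: 9 of 10 passed in WT, delayed and NSG mice and 7 in acute and Rag2-/- mice, with sums of 405.5 to 510.6 CPM in stroked against 232.4 to 240.5 CPM in non-stroked Rag2-/- mice and 423.4 to 596.3 against 252.5 to 291.2 CPM in NSG mice. In non-stroked NSG mice these sums were above the non-stroked WT range of 196.6 to 231.2 CPM. In that comparison 2 of the 10 markers passed as higher, with a median log2 fold change of 0.23 against 0.00553 over all genes. Of 8 T cell markers tested, 6 were higher after stroke in WT and 7 in delayed mice and 0 in the others. Cd8a, which marks the T cells that read class I, was at 1 to 32 counts in stroked WT libraries, at 0 to 2 in Rag2-/- libraries and at 0 in all NSG libraries, which allows up to 3 counts a library. Of the NK cell markers, 5 of 5 tested rose in WT and delayed, 2 in Rag2-/-, 1 in acute and 0 in NSG mice. Neuron markers were lower in stroked WT (4 of 7 passed, median log2 fold change -0.35), delayed (6 of 7, -0.58) and NSG mice (2 of 7, -0.31). Astrocyte markers were higher in WT (5 of 6), delayed (5 higher, 1 lower), Rag2-/- (4), acute and NSG mice (2 each). Endothelial markers passed as lower in WT mice (4 of 7, median log2 fold change -0.57). In delayed mice 1 of 7 passed as lower, with a median of -0.04 against 0.00358 over all genes. The share of all genes called lower after stroke is not reported here, so the counts of lower markers are not set against it. The part of these changes in cell content in the class I values was not tested.

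Over the 29 samples, the genes whose log2 level followed the mean of the 10 standardised genes most closely were Tnfrsf1b (Pearson r = 0.975), Tbxas1 (0.974), C1qc (0.973), Mpeg1 (0.972) and Rnase4 (0.972), out of 17021 others. Mpeg1, a macrophage perforin, had means of 23.7 CPM in non-stroked and 137 CPM in stroked WT mice, and C1qc, a complement subunit, 28.95 and 141.5 CPM. Within the set, each gene's r with the mean of the other 9 was between 0.8 and 0.977, except H2-T23 with 0.596. These values are descriptions: all points share the split between stroked and non-stroked mice, and H2-T23, H2-K1 and B2m also a difference between NSG and WT mice.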

How the data were processed

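The data were 29 sequenced tissue samples. Per the paper's methods, stranded libraries were made from polyA-selected RNA and a core facility aligned and counted the reads; aligner, build and strand setting are not given in the sources used here. The authors deposited raw counts per Ensembl gene, 1 table per sample, and these were used as deposited. Names and positions came from GENCODE M21 (25712 of 25746 IDs matched). The members and gene lists were chosen with earlier results of these data known. The sample labels gave the groups; for 2 acute samples the title and the table's name carry different numbers.

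Counts were tested with edgeR 4.0.16 in R 4.3.3 (TMM, filterByExpr by group, quasi-likelihood, 1 fit of 8 groups, 12 comparisons), adjusted by Benjamini-Hochberg over 17031 genes, with a call at an adjusted p below 0.05. The SE is the absolute log2 fold change divided by the square root of F. CPM uses the TMM library size. The labels name no litters, so p-values measure only the spread between these samples. Ratios (prior count 2) were tested by exact permutation with scipy 1.17.1. The steps were tested on simulated data. Named genes were the 10 members, 20 further pathway genes chosen by name (not all are reported here), the strain check genes and the 5 closest in pattern; H2-Q10, Sec61b, Psme3, Irf8 and Ifngr1 were named after their values were seen. Alternatives were RLE normalization, other filters, DESeq2 1.42.0, cohort settings, a minimum log2 fold change of 1, fits of only the groups compared, a replicate block, and each mouse left out.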

Additional observations from a re-analysis of the deposited data

Results flagged for a closer look

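Of 40 sets of values (10 genes in the groups of 4 or 5 mice), 3 held a mouse far from the others of its group, where chance gives about 1 in 20. In WT-Tacr delayed mice the gap between replicate 5 and the next mouse took up 0.748 of the group's whole range for Tap1 (20.9 against 10.8 CPM) and 0.714 for Nlrc5 (15.0 against 7.37 CPM). The same mouse had the lowest total count of the series, 17789044, the highest summed level of interferon-stimulated genes, 303.5 CPM against 95.8 to 164.6 CPM in the other 4 delayed mice, and the highest sum of microglia and macrophage markers, 714.3 CPM; their part in its class I values was not tested. In non-stroked NSG mice, replicate 3 stood apart for H2-T23 by 0.882 of the range (1.79 against 1.29 to 1.35 CPM), a gap that rests on 63 counts against a lowest of 43. That mouse also had the highest summed NK cell markers of its group, 8.957 CPM against 0.2166 to 1.872 CPM. Of the 9 markers in this sum, 4 (Ncr1, Klrk1, Nkg7 and Gzmb) had 0 counts in every non-stroked NSG library. The sum therefore does not show that NK cells were present. The same mouse had the highest Tap1 of its group, 3.26 CPM. The part of these values in its H2-T23 level was not tested.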

How the results depend on the processing

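Of the recomputed counts of the 10 genes, 186 stayed within 1.5 times the value given and 19 did not. Against non-stroked WT mice, the 5 genes of WT-Tacr acute mice became 0 with cohort as a covariate, in Imm2 only and when the model held just those groups, and ran from 0 to 8 with single mice left out. The 10 genes of delayed against acute treatment became 0 in TF only (chosen after seeing the data) and when the model held just those groups, 6 at an absolute log2 fold change above 1, and ran from 0 to 10 with single mice left out. With single mice left out, the counts ran from 4 to 8 for stroke in Rag2-/- mice, from 0 to 8 for acute treatment against stroked WT and from 0 to 1 for delayed treatment against stroked WT. Shares of all genes called in these refits are not reported here. The median log2 difference of acute treatment was -1.25 against stroked WT and 0.33 against non-stroked WT in Imm2 only, and 0.41 against non-stroked WT without acute replicate 3. The Psmb10/Psmb7 log2 differences, near 0, changed sign: with single mice left out they ran from -0.0752 to 0.0846 in WT, from -0.0361 to 0.0275 in Rag2-/- and from -0.0799 to 0.0124 in delayed mice. Of the further pathway genes, the 24 called in WT mice became 14 with cohort as a covariate and 11 in Imm2 only, the 41 in delayed mice became 13 with cohort as a covariate, and with just the groups compared in the model the 9 in Rag2-/- mice became 16 and the 30 in NSG mice 12. The cause of these shifts was not tested.

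Replicate numbers of non-stroked mice recur across strains, but same-numbered mice did not deviate together (r from -0.258 to 0.108). With the replicate as a block, 3 genes differed in NSG and 0 in Rag2-/- mice, as without it, and 5 further pathway genes differed in NSG mice against 9. The median log2 difference of NSG mice, -0.06, was 0.001272 with the block, 0.001072 in the same mice without it and from -0.141 to 0.022 with single mice left out. In non-stroked mice Nlrc5 rested on 12 to 42 and Psmb9 on 19 to 35 counts per library, which limits both.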
